A study of Homo sapiens with 15 samples.

Results

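The comparison described here is that of SCC13-TLR4 with SCC13-pUNO cells in the absence of LPS. SCC13 is a keratinocyte line from a human cutaneous squamous cell carcinoma (SCC). Both lines carry a stably integrated plasmid and were kept in blasticidin: pUNO is the control vector, and pUNO-TLR4GFP drives TLR4 fused to the green fluorescent protein. The arrays were chosen by their labels alone and make up 7 of the 15 arrays of the series, 4 of untreated SCC13-pUNO and 3 of untreated SCC13-TLR4 cells, all harvested at 24 h. The other 8 arrays hold the same lines after 24 h with 10 μg/ml LPS, and they entered the model, which takes its spread and slide term from all groups, while their own values are given only where named. SCC13-TLR4 cells were sorted for the highest GFP signal, and a matching sort of SCC13-pUNO cells is not described. Arrays of a line are cultures of 1 transfected population, so effects of TLR4, of GFP, of the sort and of the integration cannot be told apart, and every p measures the spread between cultures only.

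TLR4 is the receptor for bacterial lipopolysaccharide (LPS). LPS is handed by LBP and CD14 to a complex of TLR4 with MD-2 (the product of LY96). The receptor then signals through MYD88 and TICAM1 to NF-kB, to the MAP kinases with AP-1, and to interferon regulatory factors. In keratinocytes the pathway is known for the release of chemokines and interleukins. A receptor placed in excess in the membrane can signal without its ligand, so the comparison asks which transcripts differ between the lines before any LPS is added.

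The level of a probe is given as the log2 of its intensity over the 75th percentile of all spots on that array, so that probes above 0 are among the brightest of the array. The arrays lay on 2 slides: SCC13-pUNO replicates 1 to 3 and SCC13-TLR4 replicate 1 on slide 1, SCC13-pUNO replicate 4 and SCC13-TLR4 replicates 2 and 3 on slide 2. Slide accounted for 36.9% of the variance over all 15 arrays and the 4 groups for 19.0%, and slide was therefore a term of the model. Any split into 4 groups takes up some variance, so the 19.0% is not by itself an effect of line or LPS. Untreated arrays of a group correlated with Pearson's r of 0.936 to 0.994 across probes. Of 25017 spots well above background on the other 14 arrays, 353 were dark on SCC13-TLR4 replicate 1, against at most 14 by the same measure on any other array.

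The array labelled SCC13-pUNO replicate 2 read the transfected gene as SCC13-TLR4 cells do, against its label. Its TLR4 level was 3.04, where the 3 SCC13-TLR4 arrays were at 3.19, 3.04 and 3.07 and the other SCC13-pUNO arrays at -3.80, -6.40 and -5.72. Each result is therefore given with this array under its label and without it. With all arrays, 0 of 22676 probes tested (0%) passed an adjusted p of 0.05 in limma, with 1256 at an unadjusted p under 0.05 and a smallest adjusted p of 0.789. Without that array, 11 probes (0.0485%) passed, 6 higher and 5 lower in SCC13-TLR4 cells, and 4 of them differed by more than 2 on the log2 scale. The count rests on the spread shared with the LPS arrays: fitted on untreated arrays only, 1 probe passed (RANBP17). It was 4 with a replicate block (HBB, TLR4, RANBP17 and A_33_P3274009) and 5 without SCC13-TLR4 replicate 1 (the same 4 and MEST), so that FHIT, KRT14, TCEAL6, ERP27 and both further probes passed in none of these 3 fits. The 3 SCC13-TLR4 arrays lay entirely above the 3 remaining SCC13-pUNO arrays for 926 of 22452 probes (4.12%) and entirely below them for 672 (2.99%).

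TLR4 and HBB, the beta chain of hemoglobin, were far brighter in SCC13-TLR4 cells, and FHIT, KRT14 and 2 probes without a gene name were also higher. RANBP17, TCEAL6, MEST, ERP27 and 1 probe without a gene name were lower. The absolute log2 difference was under 0.5 for 92.6% of all probes tested and had a median of 0.12. Values from here on are those without the array labelled SCC13-pUNO replicate 2 unless stated.

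**Figure D1:**
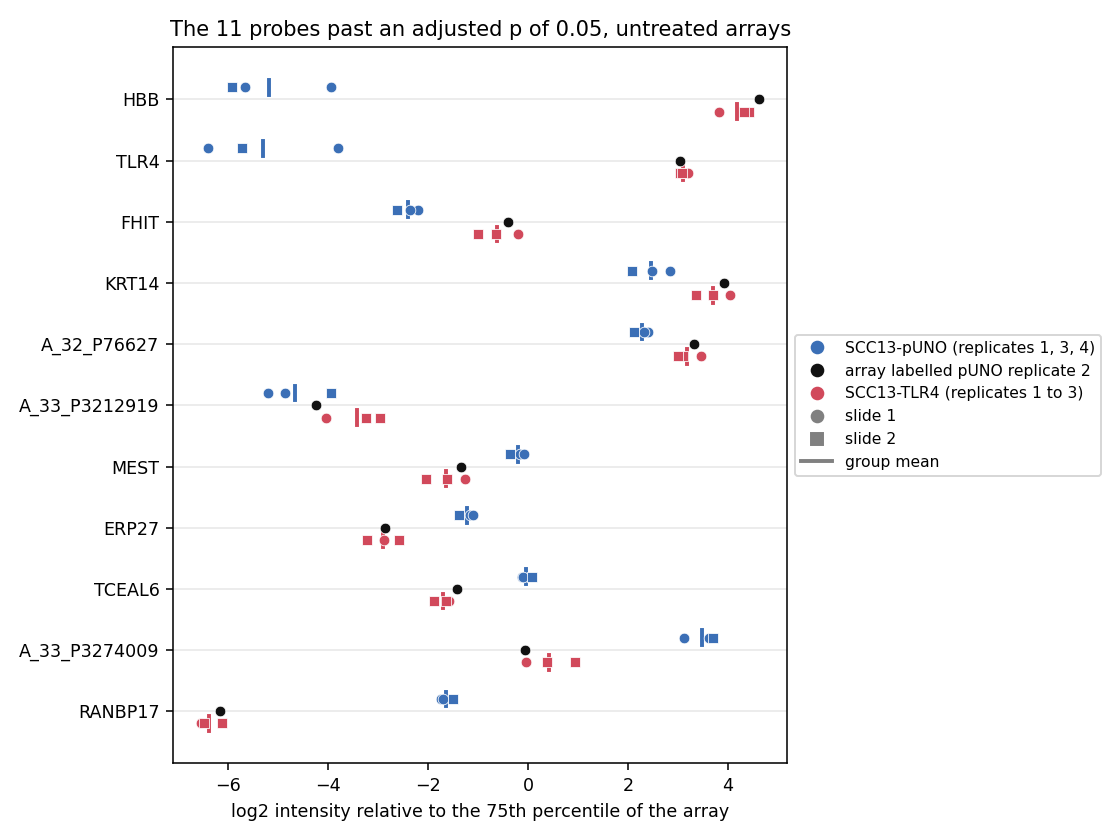
Log2 of the intensity over the array's 75th percentile (x axis) for the 11 probes past an adjusted p of 0.05 (y axis), each point 1 untreated array, circles for slide 1 and squares for slide 2, with bars at the means of the 3 SCC13-pUNO (blue) and 3 SCC13-TLR4 (red) arrays. The array labelled SCC13-pUNO replicate 2 (black) lies nearer to the SCC13-TLR4 mean for 10 of the 11 probes.

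TLR4 (probe A_24_P69538) was higher by a log2 difference of 8.40 (SE 0.58, limma adjusted p = 8.76e-05). The SCC13-pUNO level had an SD of 1.35 and the SCC13-TLR4 level an SD of 0.08 (n = 3 each). Of the SCC13-pUNO arrays kept, replicate 1 alone read the probe well above background, so the size of the difference rests in part on signals near background. With all arrays the log2 difference was 6.57 (SE 1.72, limma adjusted p = 0.897). A second TLR4 probe, A_32_P66881, exceeded background clearly on 0 of 15 arrays, and it read between -6.60 and -4.96 in untreated cells of both lines.

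HBB (A_23_P203558) was at 3.82, 4.42 and 4.31 in SCC13-TLR4 replicates 1 to 3 and at -3.95, -5.66 and -5.92 in SCC13-pUNO replicates 1, 3 and 4, where 0 of 3 arrays read it clearly above background. The HBB signal of SCC13-TLR4 cells was at least 343-fold higher, taking on each SCC13-pUNO array the faintest signal well above background as the floor (limma adjusted p = 3.89e-06). The array labelled SCC13-pUNO replicate 2 read HBB at 4.63. SCC13-pUNO replicate 1 was the highest of the remaining arrays for both HBB and TLR4. Of 10 erythroid markers on the arrays 8 were tested, and HBB alone of these 8 passed an adjusted p of 0.05. The other globins gave log2 differences of 0.29 for HBA2, 0.27 for HBD and 0.19 for HBG1, with unadjusted p of 0.135, 0.509 and 0.593 (limma). AHSP, the chaperone of alpha globin, exceeded background clearly on 0 of 7 untreated arrays, and KLF1, a master regulator of erythroid genes, differed by -0.05.

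RANBP17 (A_23_P58819), a member of the importin-beta family of nuclear transport receptors, was at -1.75, -1.71 and -1.50 in SCC13-pUNO replicates 1, 3 and 4. In SCC13-TLR4 cells it was at -6.55, -6.50 and -6.13 and well above background on 0 of 3 arrays. It was at least 6.86-fold lower there (limma adjusted p = 3.89e-06), and the array labelled SCC13-pUNO replicate 2 was at -6.16. The groups did not overlap, so its SCC13-TLR4 arrays were the lower ones on both slides.

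FHIT (A_33_P3216601), a diadenosine triphosphate hydrolase encoded at a common fragile site, was at -0.20, -0.65 and -1.01 in SCC13-TLR4 cells and at -2.21, -2.37 and -2.62 in SCC13-pUNO cells. The log2 difference was 1.96 (SE 0.21, limma adjusted p = 0.00619). KRT14, the type I keratin of basal keratinocytes, was read by 3 probes of the same transcript, and all 3 were higher in SCC13-TLR4 cells without overlap of the arrays. The one that passed (A_21_P0011633) was at 4.05, 3.70 and 3.37 against 2.84, 2.48 and 2.07, a log2 difference of 1.44 (SE 0.19, limma adjusted p = 0.0229). The remaining KRT14 probes gave 0.66 (limma adjusted p = 0.0736) and 1.19 (limma adjusted p = 0.592). Keratin genes are close in sequence, and hybridisation across them was not tested.

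Among the lower transcripts, MEST (A_23_P156970), an imprinted gene expressed from the paternal allele, was at -0.17, -0.09 and -0.36 in SCC13-pUNO cells and -1.26, -2.05 and -1.63 in SCC13-TLR4 cells, a log2 difference of -1.38 (SE 0.16, limma adjusted p = 0.0102). TCEAL6 (A_32_P192545), a member of an X-linked family of elongation factor-like proteins, was at -0.13, -0.09 and 0.08 against -1.59, -1.64 and -1.88, a log2 difference of -1.67 (SE 0.19, limma adjusted p = 0.00933). A second TCEAL6 probe gave -1.41 (limma adjusted p = 0.0736). ERP27 (A_23_P139687), a protein of the endoplasmic reticulum related to the disulfide isomerases, was at -1.17, -1.11 and -1.38 against -2.88, -2.59 and -3.22, a log2 difference of -1.65 (SE 0.22, limma adjusted p = 0.0253). For all 3 genes the groups did not overlap, which by itself fixes the same sign on both slides.

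The remaining probes past the threshold had no gene name in the tables used. A_33_P3274009 was lower by -3.24 (SE 0.21, limma adjusted p = 6.27e-05), falling from 3.63, 3.13 and 3.69 to -0.03, 0.94 and 0.38. A_32_P76627 was higher by 1.03 (SE 0.11, limma adjusted p = 0.00483), with 3.45, 3.11 and 3.00 against 2.39, 2.32 and 2.13. The call of A_33_P3212919 rested on the slide term, since its groups overlapped: SCC13-TLR4 replicate 1 was at -4.05 and SCC13-pUNO replicate 4 at -3.94 (log2 difference 0.89, SE 0.12, limma adjusted p = 0.0253). Its signal exceeded background clearly on 1 of 3 SCC13-pUNO arrays.

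With all arrays under their labels, each of the 11 probes kept its sign at an adjusted p of 0.897 (limma), and the differences were smaller, such as 1.56 for FHIT, 1.16 for KRT14 and -1.12 for MEST. The array labelled SCC13-pUNO replicate 2 lay nearer to the SCC13-TLR4 mean than to the mean of the other SCC13-pUNO arrays for 10 of the 11, TLR4 included, which had singled the array out. Over all probes tested it lay nearer to the SCC13-TLR4 mean for 42.5%. Over the 1598 probes whose 3 against 3 arrays did not overlap, the share was 56.3%. The array lay on slide 1, and the 2 means hold unequal numbers of arrays from each slide. It was also set against slide 1 alone, that is SCC13-TLR4 replicate 1 and the mean of SCC13-pUNO replicates 1 and 3. The shares nearer to SCC13-TLR4 were then 47.6% and 61.6%, with 11 of the 11 called probes. The named probes of ATF3, CXCL1 and TFPI2 on that array were also nearer to the SCC13-TLR4 mean. Of the further ATF3 probes, A_33_P3214105 read -1.03 there, above all SCC13-TLR4 arrays (-1.65, -1.17 and -1.21). A_33_P3214096 read -1.59, within the other SCC13-pUNO arrays (-1.55, -1.86 and -1.26). Of the 24 largest differences described below, 16 were nearer to the SCC13-TLR4 mean, and RASSF6 at -3.17 was among those nearer to the SCC13-pUNO mean.

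**Figure D2:**
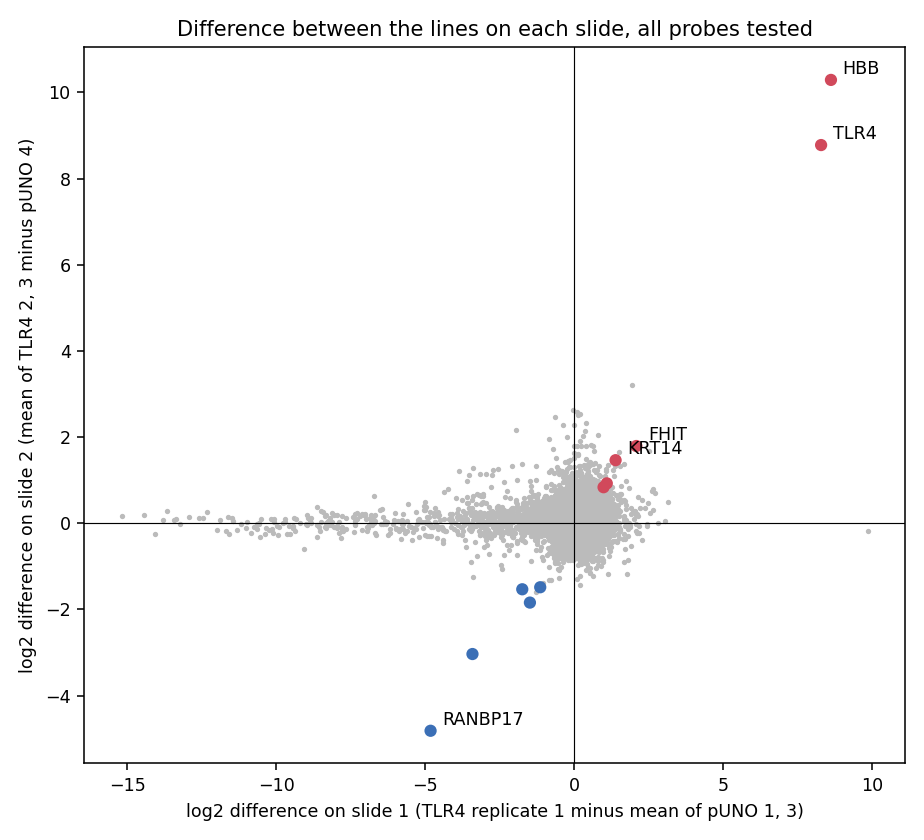
Log2 difference between SCC13-TLR4 and SCC13-pUNO cells on slide 1 (x axis, 1 array against 2) and on slide 2 (y axis, 2 arrays against 1) for 22452 probes, with the 11 probes past an adjusted p of 0.05 in red (higher) and blue (lower). HBB, TLR4 and RANBP17 are placed by signals that in 1 group were mostly not well above background. Called probes lie in the corners where both slides have the same sign, and the long tail to the left holds probes that were low on the 1 SCC13-TLR4 array of slide 1 with slide 2 near 0.

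The slides gave little common ground beyond these probes. The difference had the same sign on both slides for 55.0% of the probes. Across 22452 probes, the called ones included, the differences correlated with Pearson's r of 0.06 and Spearman's rho of 0.13. Without the called probes Pearson's r was 0.02. The probes share their arrays and are not independent replicates.

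The 7 genes that the study names for its arrays, which were chosen with arrays of this comparison among others, were looked at next, with TFPI2 added here as a relative of TFPI. ATF3, a stress-induced transcription factor that binds AP-1 and CRE elements, was at -1.11, -0.12 and 0.00 in SCC13-TLR4 cells and at -1.97, -1.83 and -2.10 in SCC13-pUNO cells (A_23_P34915). The arrays did not overlap, and the log2 difference of 1.49 (SE 0.36, limma adjusted p = 0.525) did not pass (exact permutation test, two-sided, p = 0.1, the smallest that 3 arrays against 3 allow). It was 0.79 on slide 1 and 2.04 on slide 2. With all arrays it was 1.03 (exact permutation test, two-sided, p = 0.229), and SCC13-TLR4 was the higher in 9 of 12 pairs. Both further ATF3 probes were higher too, by 0.74 and 0.51.

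CXCL1, a chemokine that attracts neutrophils, was read by 2 probes. The brighter one (A_23_P7144) was at -0.53, -0.18 and -0.03 in SCC13-TLR4 against -1.26, -1.21 and -0.96 in SCC13-pUNO cells, and the other (A_33_P3330264) at -1.16, -1.04 and -1.10 against -2.12, -2.36 and -1.87. In both, every SCC13-TLR4 array was above every SCC13-pUNO array. The log2 differences were 0.80 (SE 0.17, limma adjusted p = 0.410) and 1.04 (SE 0.16, limma adjusted p = 0.0874), and the mean over both probes passed, at 0.92 (limma adjusted p = 0.0107). With all arrays they were 0.57 and 0.68.

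TFPI2, a Kunitz-type inhibitor of serine proteases, was lower: -2.48, -3.15 and -2.53 in SCC13-TLR4 against -1.61, -1.67 and -1.52 in SCC13-pUNO cells (A_23_P393620). The arrays did not overlap, and the log2 difference was -1.09 (SE 0.27, limma adjusted p = 0.593). With all arrays it was -0.80. Its relative TFPI was not tested, as neither of its probes exceeded background clearly on more than 2 of 15 arrays.

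CDH13, a cadherin anchored in the membrane by a lipid, was at -0.67, -1.15 and -0.85 against -1.50, -1.15 and -1.56 (A_32_P85999). SCC13-TLR4 replicate 2 and SCC13-pUNO replicate 3 read nearly the same level, and the log2 difference was 0.55 (SE 0.14, limma adjusted p = 0.626). The cytokine gene IL6 was at -1.79, -1.56 and -0.85 against -0.26, -0.27 and -1.09 (A_23_P71037). The IL6 arrays overlapped, and the log2 difference of -0.77 (SE 0.47, limma adjusted p = 0.836) was -1.52 on slide 1 and -0.12 on slide 2. CXCL12, a chemokine, differed in sign between the slides: its log2 difference was -0.75 (SE 0.98, limma adjusted p = 0.909), -2.49 on slide 1 and 0.31 on slide 2, and its spot on SCC13-TLR4 replicate 1 lay in a dark area. A second CXCL12 probe gave 0.23. IL6R, the receptor of that cytokine, was not tested, with 0 of 15 arrays clearly above background for either probe.

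**Figure D3:**
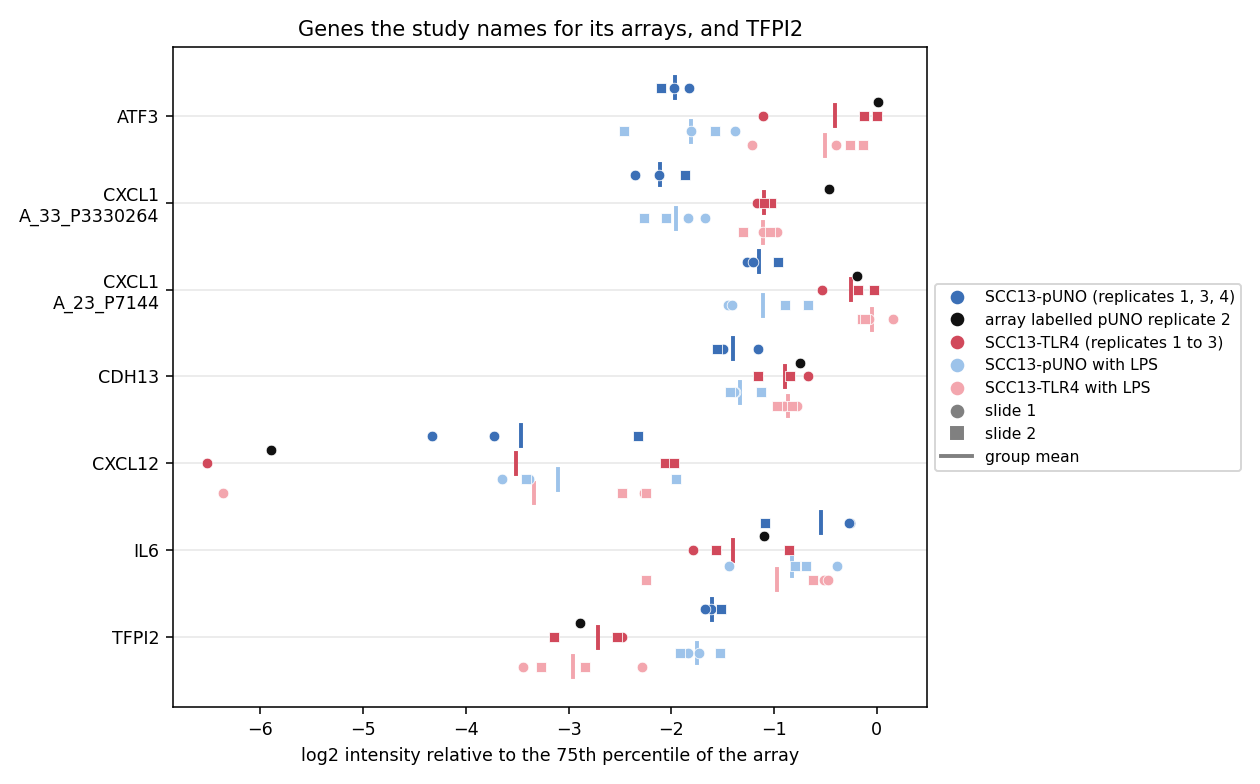
Log2 of the intensity over the array's 75th percentile (x axis) for TFPI2 and the tested genes that the study names (y axis), each point 1 array, with group means as bars, untreated SCC13-pUNO in blue and SCC13-TLR4 in red, the array labelled SCC13-pUNO replicate 2 in black, the LPS-treated arrays of the same lines in pale colours, and circles and squares for slides 1 and 2. Red and blue do not overlap for ATF3, both CXCL1 probes and TFPI2, and they overlap for IL6 and CXCL12.

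CXCL1 and TFPI2 are secreted products that lay on opposite sides, and their promoters are shown for context as the 250 bases before the transcription start, from the RefSeq promoter table (GRCh38.p14). Capitals mark letters that match an NF-kB-type motif (GGGAA, then NNN, then CC) or an AP-1-type motif (TGANTCA), searched on both strands. The CXCL1 promoter (chr4:73869143-73869392, + strand) holds 2 overlapping NF-kB-type matches on opposite strands, from 79 to 69 bases before the start. The TFPI2 promoter (chr7:93890754-93891003, - strand) holds 1 match to TGANTCA, from 87 to 81 bases before the start. It reads TGAATCA, with A at the centre, where the search allowed any base. Over 35116 promoters of the same length the motifs were found in 6.02% and 6.57%. A match describes the letters and is not evidence of binding.
CXCL1: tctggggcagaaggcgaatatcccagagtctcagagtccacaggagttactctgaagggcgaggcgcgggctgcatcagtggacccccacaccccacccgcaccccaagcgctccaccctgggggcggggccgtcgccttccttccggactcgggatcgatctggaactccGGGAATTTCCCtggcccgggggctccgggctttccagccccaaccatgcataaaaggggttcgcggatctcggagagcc
TFPI2: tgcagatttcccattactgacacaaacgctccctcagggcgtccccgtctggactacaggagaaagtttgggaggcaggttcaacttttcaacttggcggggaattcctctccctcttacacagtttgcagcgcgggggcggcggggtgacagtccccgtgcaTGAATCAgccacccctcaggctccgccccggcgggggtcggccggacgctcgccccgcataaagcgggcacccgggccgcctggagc

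Beyond the named genes, the 12 largest differences in each direction were taken among genes well above background on all 6 arrays and without overlap. A further condition, 1 sign on both slides, is always met where the arrays do not overlap. These conditions left 504 genes on the higher and 487 on the lower side. The 24 values are a description, since the choice used them. FHIT, ATF3, KRT14 and CXCL1 were on the higher side, with SNORD45A, a small nucleolar RNA, at 1.21 (SE 0.20, limma adjusted p = 0.0874). They were followed by the beta-defensin DEFB4A (0.99), the hair keratin-associated KRTAP10-9 (0.95), the peptidase ACE (0.95), RASSF6 (0.91) and SHOX (0.91). The others of the 12 are not reported by name. RASSF6 had an adjusted p of 0.789 (limma) with all arrays, the smallest value reached there, and its SCC13-TLR4 arrays lay above all 4 SCC13-pUNO arrays.

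On the lower side RAMP1, which partners the receptor for calcitonin gene-related peptide, was at -1.08, -1.59 and -1.71 against -0.20, -0.30 and -0.64, a log2 difference of -0.96 (SE 0.17, limma adjusted p = 0.150). A second RAMP1 probe gave -0.99. NKIRAS2, ZNRF1, GPSM3 and LGALS9 rested on SCC13-TLR4 replicate 1. NKIRAS2, an inhibitor of NF-kB signalling, was at -4.19 there and at 1.68 and 1.53 on the other SCC13-TLR4 arrays, against 2.04, 1.97 and 1.73 in SCC13-pUNO cells. Without that array the log2 differences were -0.04 for NKIRAS2, -0.06 for ZNRF1, -0.18 for LGALS9 and -0.66 for GPSM3, in place of -2.52, -1.55, -0.91 and -1.11. Second probes of NKIRAS2 and LGALS9 gave 0.01 and -0.04 on all arrays kept. PAX6 (-0.70), the lysosomal amidase NAAA (-0.77) and a ribosomal RNA gene (RNA5-8SN5, -0.85) were the further lower genes, with TCEAL6, ERP27, MEST and TFPI2. For NAAA, a second probe gave 0.02, and the first was at 0.11 with LPS.

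The LPS-treated arrays are other cultures of the same lines and share no array with this comparison. Both comparisons come from 1 fit with a shared spread and slide term, so their p-values are not independent. Of the 11 called probes, 10 also passed with LPS, with the same sign and without overlap: HBB at least 352-fold higher, TLR4 at least 147-fold higher, RANBP17 at least 6.12-fold lower (the dim group at the floor), and by log2 differences A_33_P3274009 at -2.98, FHIT at 2.26, KRT14 at 1.68, ERP27 at -1.67, TCEAL6 at -1.36, MEST at -1.28 and A_32_P76627 at 1.16. The remaining one, A_33_P3212919, was at -0.38 with LPS against 0.89 without. Of the 24 largest differences, 21 had the same sign with LPS, 11 of 12 higher and 10 of 12 lower, and 5 on each side did not overlap there. Over all probes, 66.2% had the same sign in both, and with LPS 0.552% lay without overlap on the higher and 0.712% on the lower side. RAMP1 (-1.14, limma adjusted p = 0.0116) and SNORD45A (1.13, limma adjusted p = 0.0341) passed with LPS, as did the brighter CXCL1 probe (1.06, limma adjusted p = 0.0243). For the difference between the lines with LPS against that without, 0 probes passed an adjusted p of 0.05 (limma interaction), with 459 at an unadjusted p under 0.05.

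**Figure D4:**
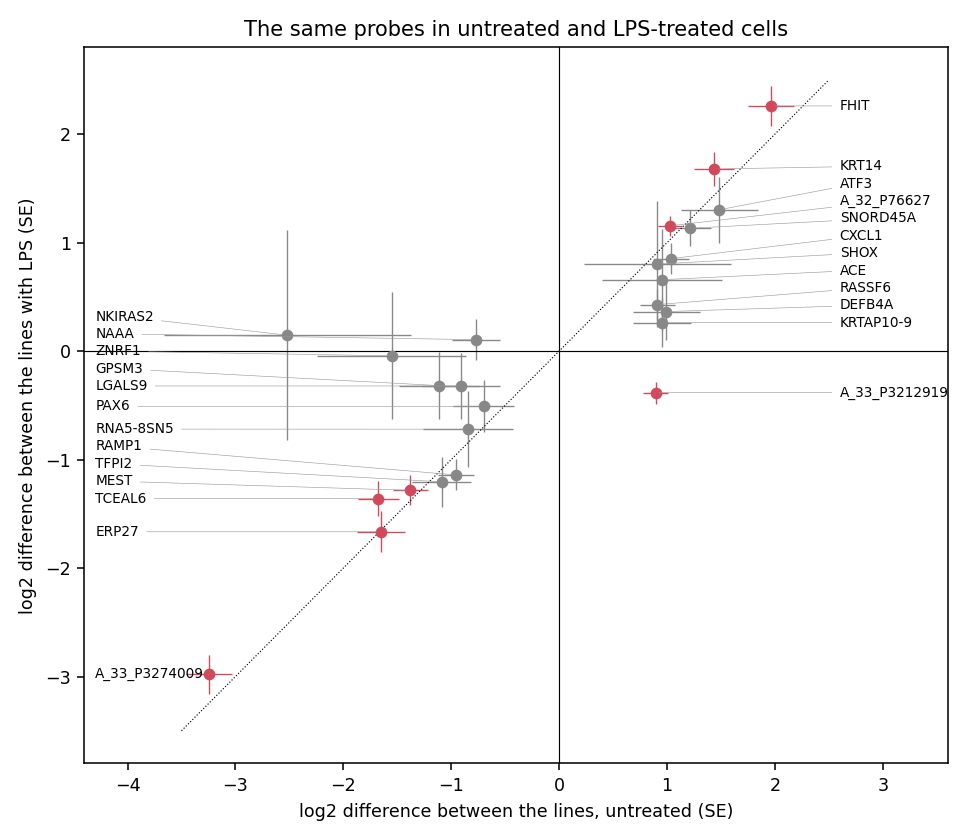
Log2 difference between SCC13-TLR4 and SCC13-pUNO cells without LPS (x axis) and with LPS (y axis), with SE bars, for called probes in red and the further genes of the 24 largest differences in grey, leaving out HBB, TLR4 and RANBP17 for scale and the genes not reported by name, with a dotted line of equal values. NKIRAS2 and ZNRF1 lie near 0 with LPS, and A_33_P3212919 is the called probe on the opposite side.

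The pathway downstream of the receptor was examined by gene lists, with the brightest probe of each gene. Over 13069 genes, 3.59% were higher and 2.16% lower in SCC13-TLR4 cells at an unadjusted p under 0.05 (limma), and the median log2 difference was 0.01. With all arrays these shares were 2.58% and 2.37%. Of 12 members of the receptor complex and its adaptors, 9 were tested, TLR4 passed the adjusted p, and the median difference was 0.02. LY96, which encodes the co-receptor MD-2, was at -2.79, -3.32 and -3.02 against -3.66, -3.70 and -3.30, and its log2 difference of 0.57 (SE 0.21, limma unadjusted p = 0.0217) was 0.19 with all arrays, as the array labelled SCC13-pUNO replicate 2 was at -1.79. The LPS co-receptor CD14 differed by -0.12, MYD88 by 0.17 and TICAM1 by 0.02. LBP, which carries LPS in serum, exceeded background clearly on 0 of 15 arrays. Of the other Toll-like receptors TLR1, TLR3, TLR5 and TLR6 were tested, with differences between -0.20 and 0.25.

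Of 15 kinases and ligases of the pathway tested, 0 reached an unadjusted p under 0.05 (limma), and their differences ran from -0.12 to 0.34. Of 16 NF-kB subunits and feedback inhibitors, 1 did, SOCS1 at -0.31 (SE 0.10), with arrays that overlapped between the lines. NFKBIA, the inhibitor that NF-kB itself induces, differed by -0.14. Of 24 cytokines and chemokines of the LPS response 8 were tested, and the probes of 16, CXCL8, TNF, CCL20 and PTGS2 among them, were not well above background throughout any group. Of the 8, CXCL1 (0.80) and the interleukin IL1B (0.42, SE 0.13) were higher at an unadjusted p under 0.05, 0 were lower, and CXCL2 differed by -0.06. IL1B was at -3.10, -2.69 and -2.94 against -3.52, -3.57 and -3.11 without overlap, and with LPS it differed by -0.07.

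Among 26 members of the MAP kinase pathway and the AP-1 early response, 5 were higher at an unadjusted p under 0.05 and 0 lower, with a median of 0.12. They were ATF3, the ERK-regulated factor ETV5 (0.56), the MAP kinase phosphatase DUSP1 (0.40) and the pathway inhibitors SPRED2 (0.37) and SPRY4 (0.32). The SPRY4 arrays overlapped between the lines. DUSP1 was at -1.89, -1.39 and -1.40 against -2.05, -2.10 and -2.05, and ETV5 at -0.76, -0.54 and -0.97 against -1.31, -1.33 and -1.27. Neither gene overlapped between the groups. The array labelled SCC13-pUNO replicate 2 was higher than the other SCC13-pUNO arrays for both genes, and with all arrays 1 member of the list was higher at that p.

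Of 16 cell cycle inhibitors and p53 targets, 3 were higher at an unadjusted p under 0.05: the cyclin-dependent kinase inhibitor CDKN1A (0.42, SE 0.10), the antiproliferative BTG2 (0.36, SE 0.09) and SESN2 (0.33, SE 0.12). The median of the list was 0.15, and 0 were lower. CDKN1A was at -2.37, -2.33 and -2.46 against -2.79, -2.69 and -2.78. Of 36 genes of proliferation and the cell cycle 0 were higher and 1 was lower, thymidylate synthase TYMS at -0.29, and the proliferation marker MKI67 differed by 0.22 with 0.47 on slide 1 and -0.06 on slide 2. Of 19 genes of the integrated stress and unfolded protein responses, 4 were higher. They were CHAC1 at 0.62, DDIT4 at 0.35, SESN2 at 0.33 and PHGDH at 0.21. The arrays of CHAC1, SESN2 and PHGDH overlapped between the lines, and those of DDIT4 did not. With LPS 0 of the 19 were higher, against 274 of all 13069 genes, so few would be higher at that share. ATF3 belongs to stress responses too and was counted with the MAP kinase list.

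Both lines expressed keratinocyte markers. Of 12 keratinocyte markers, 11 were well above background on all 7 untreated arrays, the exception being KRT6A, and their summed log2 level was 9.39 to 9.73 in SCC13-pUNO and 9.43 to 9.68 in SCC13-TLR4 cells. The sum is carried by the brightest probes. Of the 11 markers tested, 5 lay above 0 and 6 below, with a median log2 difference of -0.004. KRT14, KRT17 and TP63 were higher at an unadjusted p under 0.05 (limma) and 0 were lower at that p. Of 8 fibroblast markers 0 were tested and 7 were well above background on none of the 7 arrays. Summed levels of the leukocyte markers were -0.64 to -0.41 in SCC13-pUNO and -0.56 to -0.34 in SCC13-TLR4 cells and those of the melanocyte markers 0.09 to 0.37 and 0.15 to 0.41. Of 5 endothelial markers, 1 was well above background on all 7 arrays. The erythroid sum moved with HBB, from 0.41 to 0.67 in SCC13-pUNO to 3.95 to 4.53 in SCC13-TLR4 cells.

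Of 18 basal keratinocyte genes, 4 were higher at an unadjusted p under 0.05 and 0 lower, with a median of 0.07. They were KRT14, the hemidesmosome component DST (0.31), the keratin KRT17 (0.38) and the lineage factor TP63 (0.43). The arrays of DST, KRT17 and TP63 overlapped between the lines. KRT5, the partner of KRT14, differed by 0.19. With LPS 5 of the 18 were higher, against 274 of all 13069 genes. Of 13 differentiation genes tested, among 27, 0 reached that p in either direction, and the median was -0.07. Of 26 genes of migration, mesenchyme and matrix, CDH13 (0.55) and the actin gene ACTA2 (0.33) were higher, and VIM, FN1 and ZEB1 were not tested, as they were not well above background throughout any group.

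**Figure D5:**
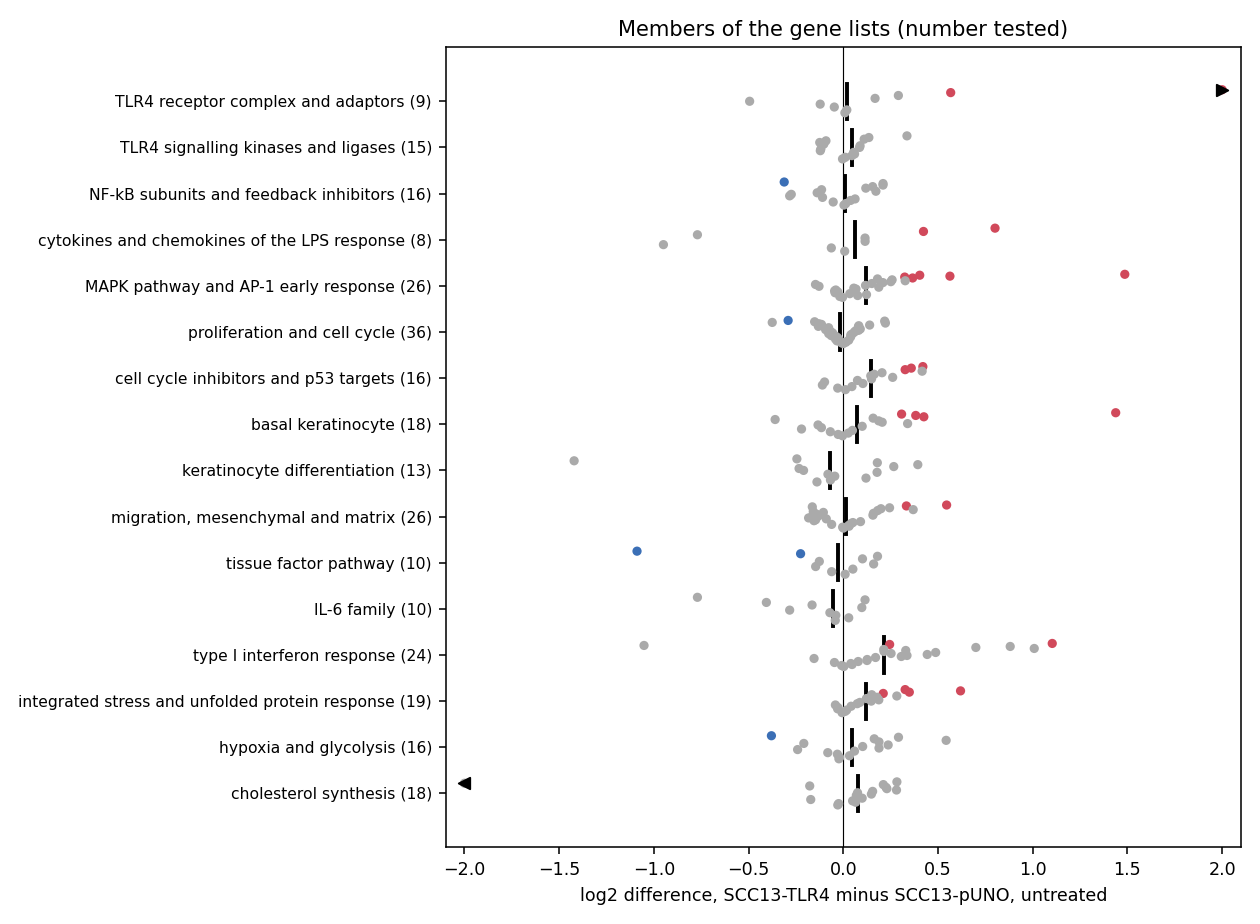
Log2 difference between untreated SCC13-TLR4 and SCC13-pUNO cells (x axis) for the tested members of 16 gene lists (y axis, number tested in brackets), each point 1 gene, in red or blue at an unadjusted p under 0.05, with a black bar at the median of the list. TLR4 at 8.40 and DHCR7 at -4.92 lie beyond the axis and are drawn as triangles at its ends, and the medians lie between -0.07 and 0.21.

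Among the 16 lists drawn, the highest median was that of the type I interferon response, at 0.21. Of its members 20 of 24 lay above 0, against 7071 of all 13069 genes. The lowest was RIGI at -1.05, whose spot on SCC13-TLR4 replicate 1 lay in a dark area. Of the 24, 2 reached an unadjusted p under 0.05 without the array labelled SCC13-pUNO replicate 2 and 5 with it. In the fit without it these were MX1 and BST2 (0.24), and the arrays of both genes overlapped between the lines. MX1, a dynamin-like antiviral GTPase, was at -0.29, -1.46 and -1.23 against -1.33, -2.11 and -1.99, a log2 difference of 1.10 (SE 0.38, limma adjusted p = 0.825). RSAD2 (1.01), MX2 (0.88) and IFI44L (0.70) had wide errors. SCC13-TLR4 replicate 1 was the highest array for MX1, RSAD2, MX2 and IFI44L. The median of the list was 0.27 on slide 1, 0.11 on slide 2 and 0.02 with LPS. Over all genes these medians were 0.05, -0.01 and -0.02.

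In the IL-6 family 0 of 10 members reached an unadjusted p under 0.05 (median -0.06). In the tissue factor pathway TFPI2 and thrombomodulin (THBD, -0.23) were lower among 10 tested, and tissue factor itself (F3) differed by -0.13. Of 16 genes of hypoxia and glycolysis, adrenomedullin (ADM, -0.38) was lower. The arrays of THBD and of ADM overlapped between the lines. Of 18 genes of cholesterol synthesis 0 reached that p, and DHCR7 at -4.92 rested on SCC13-TLR4 replicate 1, which read -6.52 within a dark area where the other arrays were at 5.43 to 6.10.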

How the data were processed

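Agilent SurePrint G3 Human 8x60K arrays with Cy3-labelled RNA were read with Feature Extraction 10.7.3.1. Spot intensity values, deposited by the authors, had been background-subtracted and detrended by that software (per the file headers), without normalization between arrays. The design was of hg19. The deposited series matrix held the same intensities at all 62976 spots of each array. Here each log2 value is the intensity divided by its array's 75th percentile over 58717 spots, controls left out (192 to 420 over the arrays). Outlier-marked spots (300 to 646 an array) were left out and spots of a probe averaged. Between 47.1% and 56.2% of spots were well above background, and precision is limited by how few arrays there are. Of 50599 probes, 22676 exceeded background clearly throughout 1 or more of the 4 groups and were tested. The model had a mean for each group and a slide factor (limma 3.58.1, R 4.3.3), with moderated variances, and p-values were adjusted by Benjamini-Hochberg over the probes tested. All 15 arrays entered the fit, or 14 without the array labelled SCC13-pUNO replicate 2, so that the 4 groups share 1 spread.

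Symbols were given through accessions in a RefSeq table (28174 probes, 20503 genes), newer than the design. Groups and replicate numbers came from the labels. The study's methods state thresholds (adjusted p of 0.05, absolute log fold change over 2, base not given) and name no test. Log2 was taken here. They add that expression was checked by PCR, and the paper also reports ATF3 protein by western blot and IL6 by ELISA. Genes named were TLR4, 7 genes of the study and TFPI2, every probe past the threshold, the 12 largest differences in each direction under the conditions given, and up to 4 members of each of 24 gene lists with the smallest p. Of these, 1 Y-linked gene and 1 further gene are not reported here. Members and lists were chosen with earlier results of these data known. Dark areas of SCC13-TLR4 replicate 1 were blocks of 8 by 8 spots with at least 3 dark spots (more than 2 log2 units below every other array, well above background there) that made up over 25% of such spots. The script was tested on simulated data. Alternatives were no slide factor, untreated arrays alone, a replicate block, array weights, trended and robust moderation, quantile normalization, normexp with an offset of 50, other filters, outlier-marked spots kept, dark areas left out, a mean per gene, a fold threshold and each untreated array left out.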

Additional observations from a re-analysis of the deposited data

Results flagged for a closer look

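In a group of 4 arrays, a value was marked where the distance to its closest neighbour took up more of the group's range than Dixon's critical value. Of 56 named probes in untreated SCC13-pUNO cells, 11 were marked, and 10 of the 11 marks lay on the array labelled SCC13-pUNO replicate 2. Chance alone marks about 1 in 20 groups, but most of these probes were named from the fit without that array, which favours probes where the other arrays lie close together, so the counts cannot be set against chance. Over all 22612 probes with 4 values, 8.04% were marked, 0.938% on the array labelled replicate 2 and 5.59% on replicate 4, the array of the group on slide 2.

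On that array RANBP17 was at -6.16 (others -1.75 to -1.50), A_33_P3274009 at -0.0546 (others 3.13 to 3.69), TCEAL6 at -1.43 (others -0.13 to 0.08) and ERP27 at -2.87 (others -1.38 to -1.11). ATF3 was at 0.0128 (others -2.10 to -1.83), TFPI2 at -2.89 (others -1.67 to -1.52), DUSP1 at -1.41 (others -2.10 to -2.05) and ETV5 at -0.60 (others -1.33 to -1.27). TYMS was at 4.61 (others 4.81 to 4.84) and RNA5-8SN5 at 1.78 (others 2.55 to 2.67). PHGDH was marked on replicate 4, at 5.02 (others 5.23 to 5.27). TLR4 and HBB were not marked.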

How the results depend on the processing

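With all arrays, 0 probes passed the adjusted p under each alternative but 2 that leave out an array: the range was 0 to 11, with 4 without SCC13-TLR4 replicate 3 and 11 without SCC13-pUNO replicate 2. Without the array labelled SCC13-pUNO replicate 2, the 11 probes became 4 with an absolute log2 fold change over 2, 7 with no slide factor, 1 with untreated arrays only (RANBP17), 4 with the replicate block (HBB, RANBP17, TLR4 and A_33_P3274009) and 7 with no filter, and leaving out a further array gave 5 (SCC13-TLR4 replicate 1) to 15 (SCC13-TLR4 replicate 3), and 6 without SCC13-pUNO replicate 3. The other alternatives gave 8 to 16. The replicate numbers share only a name: deviations of same-numbered untreated arrays correlated with r of 0.20, -0.19 and -0.20. CXCL12 turned from -0.75 to 0.31 within slide 2, to 0.46 with the dark areas left out and to 0.46 without SCC13-TLR4 replicate 1, with a range of -1.15 to 0.46 over the arrays left out. Each of the other 55 named probes examined kept its sign under every alternative. Probes chosen for arrays that did not overlap could hardly change sign within a slide or with an array left out. For these the kept sign is no test, and sizes fell as low as -0.04 for NKIRAS2 and -0.06 for ZNRF1. The fitted sizes of RANBP17, TLR4 and HBB rest on signals near background: with normexp, which lifts faint signals by its offset, they were -1.24, 5.22 and 6.06, each still past the threshold. The causes of these changes were not tested. Faint probes, such as A_33_P3212919, are limited by their signal over background.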
